A study of Mus musculus with 9 samples.

Results

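The genes described here make cholesterol, sense it, move it within the cell and send it out. They were chosen as a list of mouse symbols for sterol synthesis, regulation by the sterol regulatory element binding proteins (SREBPs), transport and uptake, and efflux driven by the liver X receptors (LXRs). The list holds 32 of the 53801 genes in the deposited count table, and all 32 were found there. By role they are 17 synthesis genes, 5 genes of SREBP regulation, 5 genes of transport, uptake and esterification, and 5 genes of LXR and efflux. The study asked how an arginase inhibitor, OAT-1746, alone or with an antibody to PD-1, acts on the myeloid cells of mouse glioma. CD11b+ cells were sorted by FACS from tumor-bearing hemispheres and their poly-A RNA was sequenced in 9 libraries. All groups were male C57BL/6J mice of 10 to 12 weeks with implanted GL261 glioma cells that carry luciferase and tdTomato. CTR (2 libraries) received saline, and OAT-1746 (2 libraries) received the inhibitor by gavage at 50 mg/kg, 2 times a day from day 1. The anti-PD-1 group (2 libraries) received 2.5 mg/kg of antibody on days 8, 10, 12 and 14, and COMB (3 libraries) received both agents. The methods place the sort at day 28 after implantation and a legend places it at day 21. For replicate 2 of anti-PD-1 the label of its treatment reads anti-PD-2, and the library was grouped by its title.

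As background, cells build cholesterol from acetyl units through mevalonate, squalene and lanosterol, and the membrane-bound SREBP made from Srebf2 switches on most of these enzymes when sterol in the endoplasmic reticulum runs low. When sterol is plentiful, oxysterols activate the LXRs, which switch on the lipid exporters Abca1 and Abcg1 and the ubiquitin ligase Mylip, which removes lipoprotein receptors from the cell surface. In the brain, microglia and incoming macrophages take up cholesterol-rich debris such as myelin, so storage and efflux are prominent functions of these cells.

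The libraries held 17490386 and 17729568 counts in CTR, 17380045 and 16784406 in OAT-1746, 14356928 and 18796479 in anti-PD-1, and 13048075, 16144518 and 14806017 in COMB. Levels are given as CPM, the counts of a gene scaled to a common library size with TMM normalization. Of the 32 genes, 31 had enough counts to be tested among 12538 protein-coding genes. Fdps, farnesyl diphosphate synthase, was not tested: its counts were 17 and 9 in CTR, 2 and 0 in OAT-1746, 6 and 6 in anti-PD-1, and 3, 7 and 3 in COMB. Fdps also shares 26.7% of its exon bases with another gene on the same strand, and Tm7sf2 shares 12.1% in this way, so pairs from the shared bases may be missing from the counts of both genes. The methods describe the libraries as biological replicates, 2 or 3 in each group. The labels do not say which animals gave which library, so p-values measure the spread between these samples.

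One library stood apart before any sterol gene was considered. OAT-1746 replicate 2 had a median absolute log2 difference of 0.59 from the CTR mean over all tested genes, against 0.32 for OAT-1746 replicate 1 and 0.12 to 0.27 for the others. Its correlations with the other libraries, across genes, lay between 0.911 and 0.956. In contrasts with OAT-1746 the counts of sterol genes that pass are therefore given without each OAT-1746 library too, and in OAT-1746 against CTR so are the log2 differences of the genes shown by library. Where leaving out 1 library moved another log2 difference of a single gene, or a median of the sterol genes, by over 1.5 times, its range is given. Such ranges span the fits that leave out each of the 9 libraries. Medians of the marker lists and of other pathway genes carry no such range, so how far they rest on single libraries is not shown. The contrasts against CTR share the same 2 CTR libraries, whether the treated group is OAT-1746, COMB or anti-PD-1, and are set side by side without being counted as separate evidence. The myeloid identity genes Itgam, Csf1r, Aif1, Cd68, Ptprc, Fcer1g and Tyrobp were expressed in all libraries, without unsorted cells to compare. Their summed level was 10590 and 12380 CPM in CTR, 13850 and 14270 in OAT-1746, 11390 and 11370 in anti-PD-1, and 12280, 11190 and 11560 in COMB. Csf1r was the most abundant of them, at 6299 and 7839 CPM in CTR and 9939 and 11550 in OAT-1746, and made up most of the sum. In OAT-1746 against CTR 5 of the 7 genes had lower fitted levels, with a median of -0.53.

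Compared per kilobase of exon, most transport and efflux genes stood at higher levels than most synthesis genes in CTR cells. Npc2, which carries cholesterol out of the lysosome lumen, was highest at 319 ± 4.60 CPM per kb (SD, n = 2). Abca1 followed at 56.6 ± 1.78 and Mylip at 50.2 ± 5.09 CPM per kb, neighbors that differed by less than their summed SDs. Abcg1 stood at 41.6 ± 0.021 CPM per kb. Ebp, a sterol isomerase, was the highest synthesis gene at 33.4 ± 0.813 CPM per kb, and Soat1, the enzyme that esterifies cholesterol for storage, was next at 30.1 ± 4.72. Npc1 and Nr1h2 both stood at 26.8 CPM per kb, with SDs of 1.49 and 1.13, and Nr1h3 at 23.7 ± 2.77. The transcription factor genes Srebf2 and Srebf1 stood at 20.3 ± 0.0032 and 16 ± 0.904 CPM per kb. Cyp51, Pmvk, Scarb1 and Mvd lay together, between 10.1 and 10.5 CPM per kb, within the SD of Mvd, 4.69. The lowest tested synthesis gene per kb was Lss, lanosterol synthase, at 1.02 ± 0.062 CPM per kb, with exons that cover 10787 bases. In CPM its CTR mean, 11.0, was above those of Idi1 (5.51), Tm7sf2 (6.28) and Hsd17b7 (8.63) and below the other tested synthesis genes. Fdps stood at 0.184 ± 0.083 CPM per kb, which the exon bases it shares with another gene may lower.

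Promoter letters are a feature that the choice of the list did not use. RefSeq windows from 250 bases before to 50 after a start, build GRCm38.p6, were found for 25 of the 32 genes, 34 windows in all. No window was given for Fdps, Fdft1, Sqle, Stard4, Npc1, Scarb1 and Abcg1. The NF-Y box, CCAAT on either strand, was present in 14 of 17 windows of synthesis genes (82.4%), which covers 14 of 14 synthesis genes with a window. The box was also in 2 of 2 windows of transport genes and in 5 of 10 windows of SREBP regulation (4 of 5 genes), and among the windows of LXR and efflux genes it was in 1 of 5 (20%), that of Mylip. Over all 32851 windows the share was 37.4%. A core of the sterol regulatory element, TCACNCCAC on either strand, was in 408 of all windows (1.24%) and in 1 window of the list, that of Hmgcs1. An LXR element, AGGTCA repeated in the same direction after 4 bases, was in 5 of all windows (0.0152%) and in 0 of the 34. The motifs as searched can share letters at their ends, but those marked in the windows below do not. A match describes the letters in the window and is not evidence of binding. The sequences below show Hmgcs1, the single window with both motifs. They also show 3 synthesis genes and 1 gene of the LXR and efflux role, Mylip, whose values by library are given later on. Capitals mark the motifs, and ATTGG is CCAAT read on the other strand. The window of Hmgcs1 is chr13:119690101-119690400 on the plus strand, that of Mvd is chr8:122443373-122443672 on the minus strand, that of Idi1 is chr13:8885356-8885655 on the plus strand, that of Cyp51 is chr5:4104648-4104947 on the minus strand and that of Mylip is chr13:45389492-45389791 on the plus strand.
Hmgcs1: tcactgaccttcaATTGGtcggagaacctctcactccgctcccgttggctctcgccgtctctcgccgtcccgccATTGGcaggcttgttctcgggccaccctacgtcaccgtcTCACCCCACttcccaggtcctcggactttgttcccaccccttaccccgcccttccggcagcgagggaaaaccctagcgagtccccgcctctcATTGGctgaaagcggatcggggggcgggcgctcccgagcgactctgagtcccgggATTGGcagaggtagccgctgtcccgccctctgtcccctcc
Mvd: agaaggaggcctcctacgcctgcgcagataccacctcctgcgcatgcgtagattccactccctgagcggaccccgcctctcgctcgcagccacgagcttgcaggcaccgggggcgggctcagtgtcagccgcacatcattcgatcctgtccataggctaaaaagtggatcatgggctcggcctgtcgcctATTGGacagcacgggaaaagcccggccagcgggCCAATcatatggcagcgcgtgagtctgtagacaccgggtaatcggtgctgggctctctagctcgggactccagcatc
Idi1: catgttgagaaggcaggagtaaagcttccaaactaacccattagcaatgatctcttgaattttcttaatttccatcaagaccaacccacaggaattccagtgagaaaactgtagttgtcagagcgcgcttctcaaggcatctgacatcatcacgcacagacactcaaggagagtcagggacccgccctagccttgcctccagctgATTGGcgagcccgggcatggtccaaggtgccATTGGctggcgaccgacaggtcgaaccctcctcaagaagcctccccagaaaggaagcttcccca
Cyp51: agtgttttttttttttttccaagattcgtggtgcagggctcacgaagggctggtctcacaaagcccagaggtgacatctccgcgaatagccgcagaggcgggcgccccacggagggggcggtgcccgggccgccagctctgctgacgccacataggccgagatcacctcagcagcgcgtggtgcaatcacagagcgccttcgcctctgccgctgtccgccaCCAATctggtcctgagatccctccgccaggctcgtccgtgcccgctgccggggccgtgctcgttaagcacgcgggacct
Mylip: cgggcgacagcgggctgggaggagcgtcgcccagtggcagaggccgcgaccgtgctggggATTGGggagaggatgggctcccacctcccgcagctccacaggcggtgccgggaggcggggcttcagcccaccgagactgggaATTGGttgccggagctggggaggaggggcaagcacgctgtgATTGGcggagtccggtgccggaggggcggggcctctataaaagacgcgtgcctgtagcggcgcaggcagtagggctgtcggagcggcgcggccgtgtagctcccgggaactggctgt

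The comparison of OAT-1746 with CTR asks what the inhibitor alone does to the sterol genes. All 16 tested synthesis genes had lower fitted levels in OAT-1746, with a median log2 difference of -0.49 against 0.008 over all tested genes. The 5 LXR and efflux genes were mixed, with a median of -0.11: Abca1 and Mylip were higher, and Nr1h3, Nr1h2 and Abcg1 were lower. No sterol gene passed edgeR's adjusted threshold of 0.05, and neither did any other gene. At an unadjusted p under 0.05, 3 of the 31 genes were higher, against 16.1% of all tested genes, and 13 were lower, against 16.2%. DESeq2 called 1 of the 31 higher, against 8.36% of all genes, and 8 lower, against 7.37%. In 3 of the 31 genes both OAT-1746 libraries lay above both CTR libraries, against 30.8% of all genes, and in 21 both lay below, against 32.1%. The share of the list on the lower side thus exceeded the background on each count, while the share on the higher side did not. The counts are readouts of the same libraries and are not separate support for each other. The list was chosen with earlier results of these data known, so an excess over all genes is a description. In bulk RNA such as this, fewer cells of a type and less RNA per cell cannot be told apart.

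**Figure D1:**
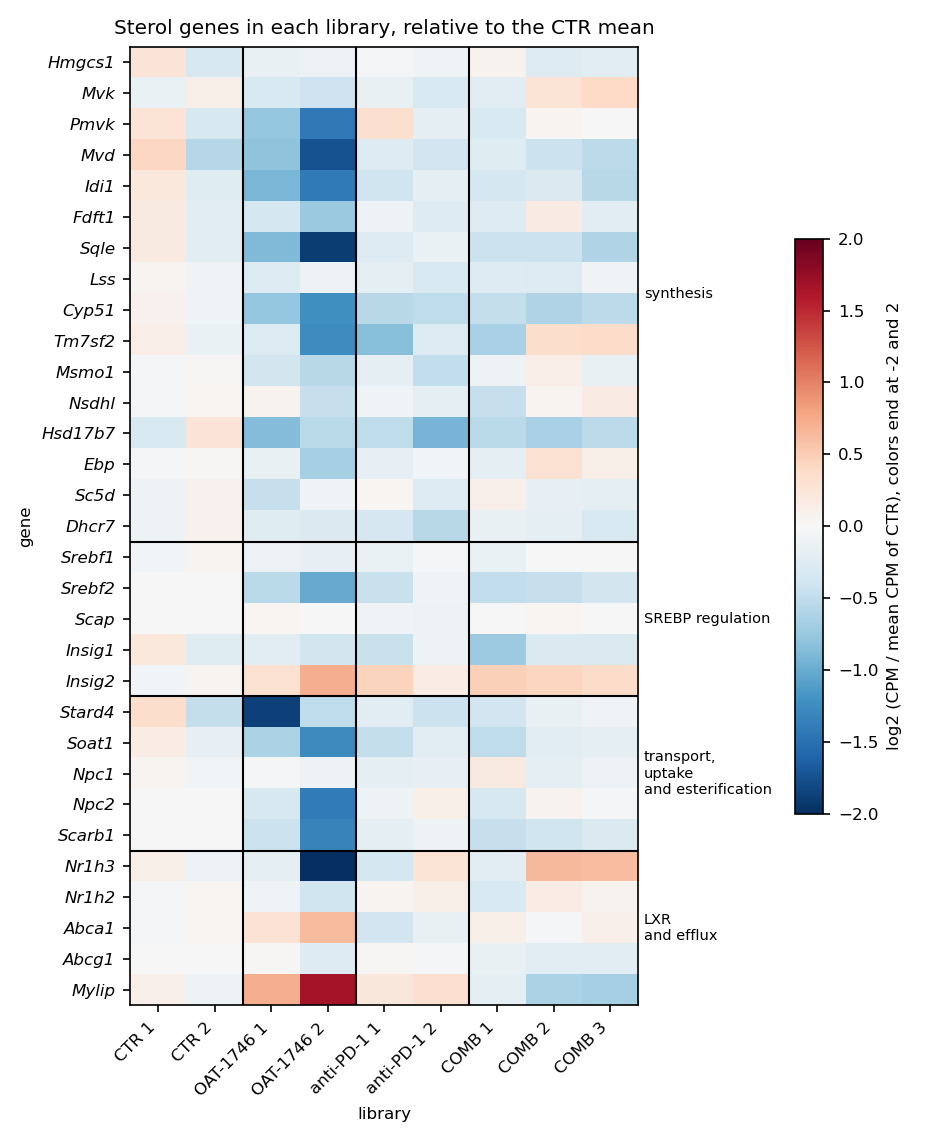
Heat map of the 31 tested sterol genes (vertical, by role) in 9 libraries (horizontal). Color gives the log2 ratio of CPM to the CTR mean, with the scale ending at -2 and 2. The blue block in the columns of OAT-1746 covers most synthesis and transport genes, deepest in replicate 2, while Abca1 and Mylip are red there.

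Among the synthesis genes, Sqle, Mvd, Idi1, Pmvk and Cyp51 had the most negative log2 differences. Sqle (ENSMUSG00000022351, chr15:59315077-59331192), squalene epoxidase, stood at 15.0 and 11.5 CPM in CTR, 7.22 and 3.55 in OAT-1746, 11.1 and 12.1 in anti-PD-1, and 9.86, 9.83 and 8.79 in COMB. Both OAT-1746 libraries were below the other 7, and the anti-PD-1 libraries lay within or near the CTR values. The fitted log2 difference of Sqle in OAT-1746 was -1.30 ± 0.31 (SE), or 0.406 of the CTR level, with an adjusted p of 0.0628 in edgeR and 0.00592 in DESeq2. Cyp51 (ENSMUSG00000001467, chr5:4081145-4104746), the demethylase that acts on lanosterol, stood at 49.0 and 43.6 CPM in CTR, 27.0 and 19.9 in OAT-1746, 31.5 and 32.5 in anti-PD-1, and 33.5, 30.4 and 32.1 in COMB. CTR was highest, OAT-1746 lowest, and the anti-PD-1 and COMB libraries lay between them and overlapped each other. Its log2 difference in OAT-1746 was -0.98 ± 0.17, with an adjusted p of 0.061 in edgeR and 0.000731 in DESeq2. The differences without OAT-1746 replicate 1 and without replicate 2 were -1.91 and -0.87 for Sqle and -1.23 and -0.77 for Cyp51.

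Mevalonate is turned into the isoprene units of sterols by Mvk, Pmvk, Mvd and Idi1. Mvd (ENSMUSG00000006517, chr8:122433601-122443422), the decarboxylase, stood at 24.9 and 12.6 CPM in CTR, 10.8 and 5.61 in OAT-1746, 15.6 and 14.3 in anti-PD-1, and 15.9, 13.9 and 13 in COMB. The OAT-1746 libraries were lowest, and the CTR libraries were far apart, with every anti-PD-1 and COMB library between them. Idi1 (ENSMUSG00000058258, chr13:8885501-8892451), the isomerase, stood at 6.37 and 4.65 CPM in CTR, 2.91 and 2.06 in OAT-1746, 4.18 and 4.79 in anti-PD-1, and 4.30, 4.49 and 3.76 in COMB. Again OAT-1746 was below the other 7 libraries, and COMB was below CTR without overlap. Pmvk (ENSMUSG00000027952, chr3:89454541-89469013), phosphomevalonate kinase, stood at 21.6 and 14.3 CPM in CTR, 10.5 and 6.64 in OAT-1746, 22.4 and 15.7 in anti-PD-1, and 14.5, 18.6 and 17.9 in COMB. OAT-1746 was lowest here as well, while the CTR, anti-PD-1 and COMB values overlapped. The log2 differences in OAT-1746 were -1.20 ± 0.36 for Mvd, -1.15 ± 0.30 for Idi1 and -1.06 ± 0.30 for Pmvk, with adjusted p-values of 0.078, 0.0695 and 0.0719 in edgeR and 0.026, 0.0175 and 0.0212 in DESeq2. When OAT-1746 replicate 1 or replicate 2 was left out, they were -1.75 and -0.79 for Mvd, -1.42 and -0.91 for Idi1, and -1.44 and -0.76 for Pmvk, and Mvd was at -0.61 without CTR replicate 1.

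Further genes differed less. Mvk (ENSMUSG00000041939, chr5:114444269-114460591), mevalonate kinase, stood at 11.0 and 13.1 CPM in CTR, 9.72 and 8.98 in OAT-1746, 10.9 and 9.75 in anti-PD-1, and 10.2, 14.6 and 15.8 in COMB. OAT-1746 was lowest by a narrow margin, and 2 COMB libraries were above the other 7 libraries. Msmo1 (ENSMUSG00000031604, chr8:64718139-64733792), a methylsterol oxidase, stood at 35.9 and 37.2 CPM in CTR, 28.5 and 24.8 in OAT-1746, 32 and 25.9 in anti-PD-1, and 34.2, 40.1 and 32.9 in COMB. The OAT-1746 libraries were below those of CTR and COMB, and the anti-PD-1 libraries overlapped them. The log2 differences in OAT-1746 were -0.36 ± 0.23 for Mvk (unadjusted p = 0.151) and -0.46 ± 0.17 for Msmo1 (0.0259). Leaving out OAT-1746 replicate 1 or replicate 2 gave -0.42 and -0.29 for Mvk and -0.56 and -0.35 for Msmo1. Hsd17b7, a sterol ketone reductase, and Fdft1, squalene synthase, had log2 differences of -0.69 ± 0.27 and -0.53 ± 0.22, with unadjusted p-values of 0.0309 and 0.04 and ranges of -0.94 to -0.39 and -0.74 to -0.31 with 1 library left out. The remaining 7 tested synthesis genes, Hmgcs1, Lss, Tm7sf2, Nsdhl, Ebp, Sc5d and Dhcr7, had log2 differences from -0.68 to -0.13, and Tm7sf2 ranged over -1.26 to -0.27 with 1 library left out. Hmgcs1, which makes the precursor of mevalonate, was among the least different, at -0.13 ± 0.20 (range -0.40 to 0.19). OAT-1746 replicate 2 had the lowest level of all 9 libraries in 11 of the 16 synthesis genes, and OAT-1746 replicate 1 in 1. No share over all tested genes is given for this count, and replicate 2 stood apart over all genes.

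Of the regulators, Srebf2 was lower and Insig2 higher. Srebf2 (ENSMUSG00000022463, chr15:82147181-82205379), which encodes the SREBP of sterol synthesis, stood at 146 and 146 CPM in CTR, 101 and 72.5 in OAT-1746, 108 and 139.5 in anti-PD-1, and 103, 106 and 113 in COMB. CTR was highest and OAT-1746 lowest, with the COMB libraries between and one anti-PD-1 library close to CTR. Its log2 difference in OAT-1746 was -0.75 ± 0.19, with an adjusted p of 0.0693 in edgeR and 0.0123 in DESeq2, and was -1.01 without OAT-1746 replicate 1 and -0.53 without replicate 2. Insig2, one of the proteins that retain SREBPs in the endoplasmic reticulum, had a log2 difference of 0.54 ± 0.18 (unadjusted p = 0.0173, adjusted p = 0.0964, range with 1 library left out 0.32 to 0.73). Its relative Insig1, itself a known SREBP target, had -0.30 ± 0.22 (range -0.51 to -0.047), Srebf1 had -0.14 ± 0.13 (range -0.19 to -0.091), and the SREBP escort Scap had 0.025 ± 0.13 (range -0.00050 to 0.058). The median of the 5 regulators was -0.14 (range -0.18 to -0.047). Over the alternatives that keep all libraries it lay between -0.259, with the replicate block and the length and GC correction, and -0.0545, with scaling by library size alone.

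The 5 genes of transport, uptake and esterification had the lowest median of the 4 roles, -0.81 (range -1.28 to -0.41 with 1 library left out, both ends from the OAT-1746 libraries). Of them 4 were lower at an unadjusted p under 0.05, against 16.2% of all tested genes, and 0 higher. Soat1 (ENSMUSG00000026600, chr1:156424525-156474331), which makes cholesteryl esters, stood at 327 and 262 CPM in CTR, 191 and 121 in OAT-1746, 212 and 255 in anti-PD-1, and 207, 254 and 258 in COMB. The OAT-1746 libraries were lowest and the CTR libraries highest. Scarb1 (ENSMUSG00000037936, chr5:125277087-125341094), a receptor for high-density lipoprotein, stood at 88.1 and 89.3 CPM in CTR, 66.0 and 35.0 in OAT-1746, 77.4 and 82.3 in anti-PD-1, and 64.2, 67.1 and 72.9 in COMB. OAT-1746 replicate 2 was lowest by a wide margin, and replicate 1 lay within the COMB range. Their log2 differences in OAT-1746 were -0.92 ± 0.24 and -0.81 ± 0.25, with adjusted p-values of 0.07 and 0.0798 in edgeR and 0.0106 and 0.0367 in DESeq2. They were, without OAT-1746 replicate 1 and without replicate 2, -1.28 and -0.62 for Soat1 and -1.35 and -0.41 for Scarb1.

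Npc2 and Stard4 rested on single libraries. Npc2 (ENSMUSG00000021242, chr12:84754562-84773152) stood at 1753 and 1718 CPM in CTR, 1393 and 655 in OAT-1746, 1625 and 1879.9 in anti-PD-1, and 1385, 1826 and 1709 in COMB. OAT-1746 replicate 2 alone was far below the rest, and replicate 1 was close to COMB replicate 1. Stard4 (ENSMUSG00000024378, chr18:33199355-33213862), a carrier of free sterol in the cytosol, stood at 15.6 and 8.76 CPM in CTR, 3.32 and 8.58 in OAT-1746, 10.5 and 9.07 in anti-PD-1, and 9.35, 11.0 and 11.6 in COMB. Here OAT-1746 replicate 1 was the low library, and replicate 2 was just under CTR replicate 2. The log2 differences in OAT-1746 were -0.76 ± 0.31 for Npc2 and -1.03 ± 0.41 for Stard4, with adjusted p-values of 0.135 and 0.127. Left to OAT-1746 replicate 2 alone and replicate 1 alone, they were -1.41 and -0.31 for Npc2 and -0.51 and -1.86 for Stard4. Npc1, the membrane partner of Npc2 in the lysosome, had -0.064 ± 0.17 (range -0.13 to 0.0041).

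Among the LXR and efflux genes, the targets did not all lie on one side. Abca1 (ENSMUSG00000015243, chr4:53030787-53159895), the exporter to lipid-poor apolipoproteins, stood at 573 and 599 CPM in CTR, 718 and 906 in OAT-1746, 448 and 528 in anti-PD-1, and 637, 575 and 631 in COMB. OAT-1746 was highest, the anti-PD-1 libraries were lowest, and COMB overlapped CTR. Abcg1 (ENSMUSG00000024030, chr17:31057675-31117988), the exporter to mature lipoprotein particles, stood at 304 and 304 CPM in CTR, 308 and 254 in OAT-1746, 308 and 295 in anti-PD-1, and 273, 259 and 261 in COMB. The OAT-1746 libraries lay on both sides of CTR, and the 3 COMB libraries were below CTR. The log2 differences in OAT-1746 were 0.47 ± 0.18 for Abca1 (unadjusted p = 0.0265, adjusted p = 0.114) and -0.11 ± 0.15 for Abcg1 (unadjusted p = 0.48). With OAT-1746 replicate 1 or replicate 2 removed, they were 0.62 and 0.30 for Abca1 and -0.27 and 0.032 for Abcg1. Correcting for gene length and GC content put Abca1 at 0.285 and Abcg1 at -0.27.

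Mylip (ENSMUSG00000038175, chr13:45389742-45412022) stood at 174 and 151 CPM in CTR, 269 and 512 in OAT-1746, 189.9 and 204 in anti-PD-1, and 144, 105 and 103 in COMB. No 2 groups overlapped in these libraries, with COMB lowest, then CTR, then anti-PD-1, and OAT-1746 highest, but the unadjusted p was 0.36 for anti-PD-1 against CTR and 0.107 for COMB against CTR. Its log2 difference in OAT-1746 was 1.27 ± 0.29, or 2.41 times the CTR level, with an adjusted p of 0.062 in edgeR and 0.0029 in DESeq2, and was 1.65 without OAT-1746 replicate 1 and 0.74 without replicate 2. Nr1h3 (ENSMUSG00000002108, chr2:91184061-91202834), which encodes LXR alpha, stood at 64.5 and 54.6 CPM in CTR, 52.3 and 8.07 in OAT-1746, 46.5 and 71.6 in anti-PD-1, and 51.2, 93.2 and 90.8 in COMB. OAT-1746 replicate 2 alone was far below all other libraries, and replicate 1 lay among the anti-PD-1 and COMB values. Its log2 difference was -0.98 ± 0.66, with the widest SE of the list and an unadjusted p of 0.17, and was -2.89 without OAT-1746 replicate 1 and -0.17 without replicate 2. Nr1h2, which encodes LXR beta, had -0.24 ± 0.18 (range -0.41 to -0.078).

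**Figure D2:**
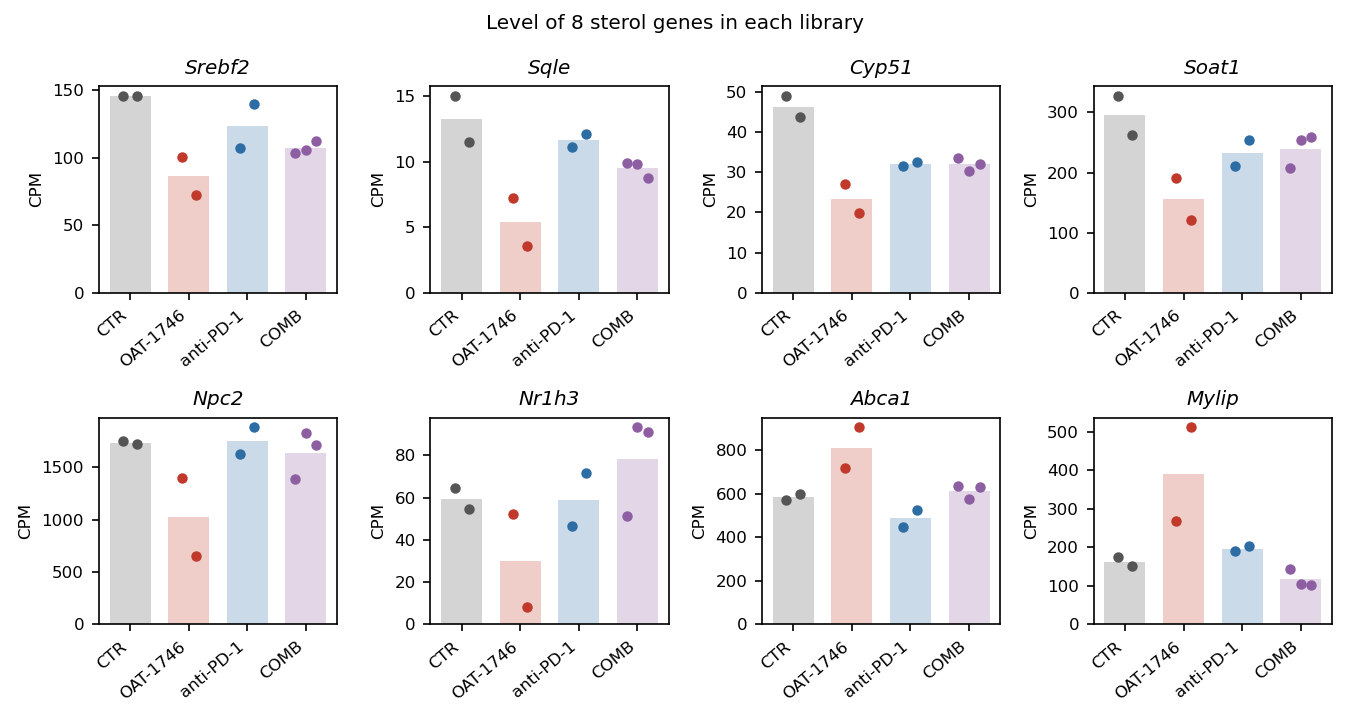
CPM (vertical axis, from 0) of 8 sterol genes in the 4 groups. Points are libraries and bars are group means. The OAT-1746 points are lowest for Srebf2, Sqle, Cyp51 and Soat1 and highest for Abca1 and Mylip, and for Npc2 and Nr1h3 a single OAT-1746 library lies far below the rest.

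Set against each other in each library, synthesis and efflux lay further apart in OAT-1746. The mean log2 CPM of the synthesis genes minus that of Abca1 and Abcg1 was -4.38 and -4.57 in CTR, -5.08 and -5.44 in OAT-1746, -4.51 and -4.68 in anti-PD-1, and -4.72, -4.45 and -4.58 in COMB. Both OAT-1746 libraries were below the other 7, which overlapped. The group means were -4.48 ± 0.14 (SD, n = 2) in CTR, -5.26 ± 0.25 (n = 2) in OAT-1746, -4.59 ± 0.12 (n = 2) in anti-PD-1 and -4.58 ± 0.13 (n = 3) in COMB. The measure uses no gene length, so only its differences between libraries carry meaning and it was not tested. Most of the gap lay on the synthesis side, whose mean log2 CPM was 4.325 and 4.165 in CTR and 3.796 and 3.463 in OAT-1746. The mean of Abca1 and Abcg1 was 8.706 and 8.738 in CTR and 8.878 and 8.905 in OAT-1746. Of these exporters only Abca1 was higher in both OAT-1746 libraries. The synthesis median alone, relative to CTR, was -0.35 and -0.61 in the OAT-1746 libraries and between -0.26 and -0.17 in the anti-PD-1 and COMB libraries.

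**Figure D3:**
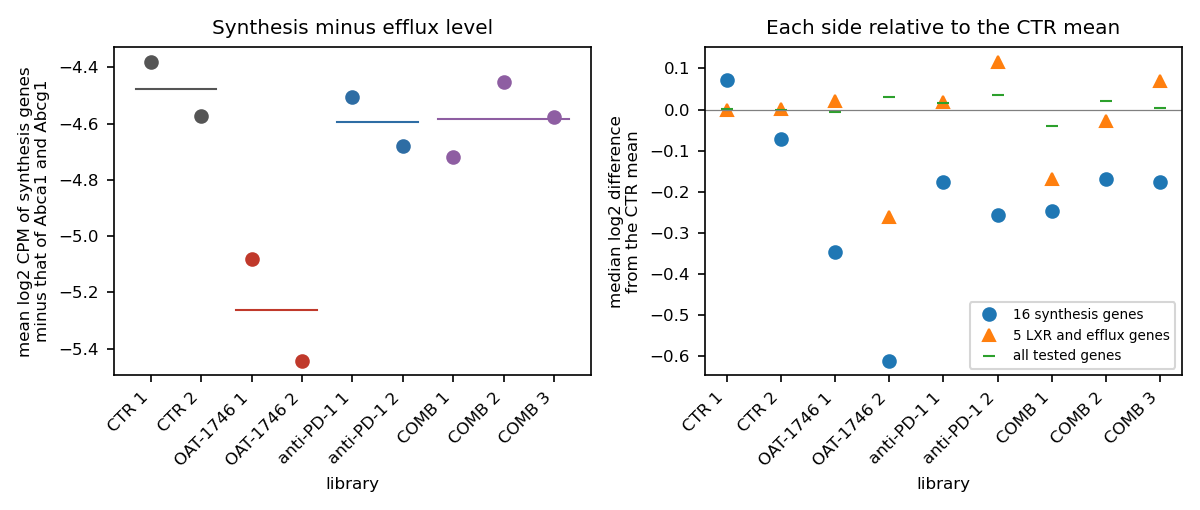
Left, mean log2 CPM of the synthesis genes minus that of Abca1 and Abcg1 (vertical) in each library (horizontal), with lines at the group means. Right, median log2 difference from the CTR mean of 16 synthesis genes, 5 LXR and efflux genes and all tested genes. On the left the OAT-1746 points, at -5.08 and -5.44, are below the other 7, and on the right the synthesis points of OAT-1746 are lowest.

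Cell type markers and other states differed with the same contrast. Microglial markers were higher in OAT-1746 for 9 of 9 genes at an unadjusted p under 0.05, with a median log2 difference of 0.94. Their summed level was 12790 and 20300 CPM in CTR, 26610 and 33430 in OAT-1746, 19090 and 15480 in anti-PD-1, and 23340, 17500 and 16430 in COMB. All 9 monocyte and macrophage markers were lower, 3 of them at an unadjusted p under 0.05, with a median of -0.75. Their summed level was 12510 and 11770 CPM in CTR, 8913 and 1672 in OAT-1746, 11360 and 13740 in anti-PD-1, and 9245, 11400 and 11730 in COMB, with Tgfbi the most abundant. OAT-1746 replicate 2 thus held the highest microglial and the lowest monocyte and macrophage level of the 9 libraries. Immediate early genes, which tissue dissociation can raise, were higher for 8 of 8 genes, 4 at an unadjusted p under 0.05, with a median of 1.12. They summed to 9221 and 8532 CPM in CTR, 13170 and 19790 in OAT-1746, 8635 and 10910 in anti-PD-1, and 4799, 5249 and 5357 in COMB, with Junb the most abundant. Genes of the G2/M phase were lower for 8 of 8 genes, 7 at an unadjusted p under 0.05, with a median of -1.71. They summed to 111.6 and 116.3 CPM in CTR, 55.18 and 17.85 in OAT-1746, 48.64 and 85.09 in anti-PD-1, and 67.94, 75.36 and 75.86 in COMB, with Top2a the most abundant. No marker of these 4 lists was at 0 in any library. Their part in the differences of the sterol genes was not tested.

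**Figure D4:**
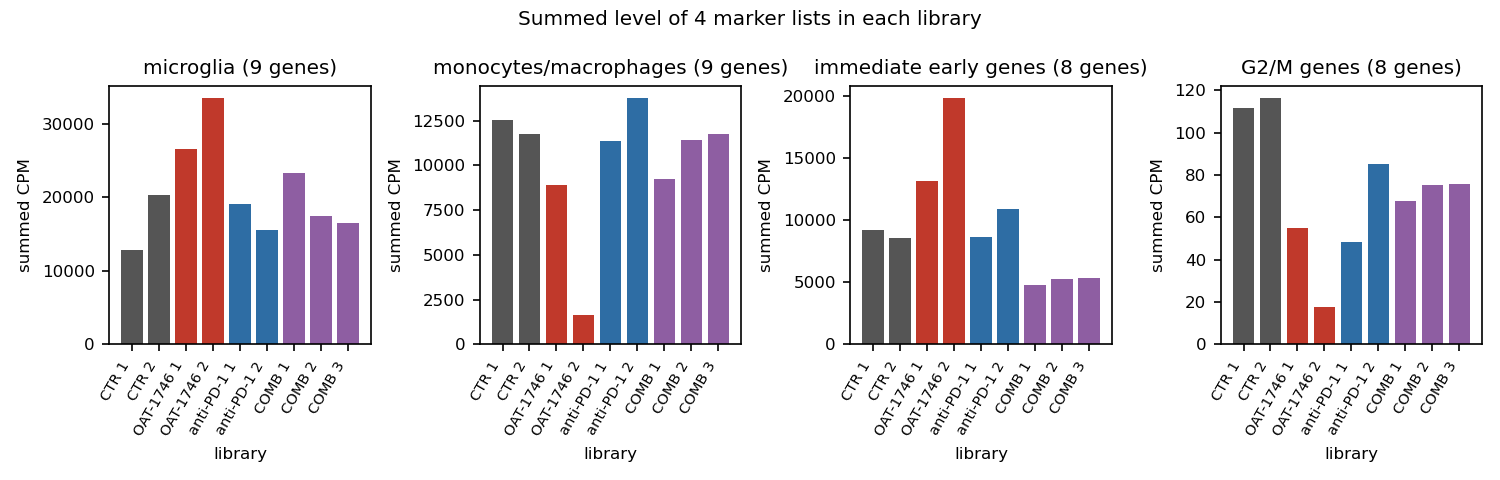
Summed CPM (vertical axis, from 0) of 4 marker lists in each of the 9 libraries, colored by group. OAT-1746 replicate 2 has the tallest microglial bar, 33430 CPM, and the shortest bar for monocytes and macrophages, 1672 CPM.

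Other marker lists in OAT-1746 had median log2 differences of 0.34 for border-associated macrophages (4 of 7 at an unadjusted p under 0.05, 2 in each direction), 0.75 for neutrophils (3 of 8, all higher) and 0.049 for NK cells (0 of 7 by edgeR at this p and 0 called by DESeq2). The medians were 0.15 for T cells (0 of 5, and 0 called by DESeq2), 0.26 for oligodendrocytes (1 of 7, lower), 0.29 for astrocytes (1 of 5, higher), 0.54 for endothelial cells (1 of 5, higher) and -0.53 for the myeloid identity genes (4 of 7, 2 in each direction). The T cell markers summed to between 7.26 and 12.6 CPM in the 9 libraries, with Cd4 the most abundant. Cd3e was at 0 counts in CTR replicate 2 and OAT-1746 replicate 1, and Cd3d and Cd3g were at 0 in CTR replicate 2.

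The number of sterol genes called in this contrast changed when OAT-1746 replicate 1 was left out, and with other choices too. Without OAT-1746 replicate 1, 15 of the 32 genes passed edgeR, against 28.2% of all tested genes in the same fit, and the synthesis median was -0.67. Without replicate 2, 0 passed, as over all genes (11 at an unadjusted p under 0.05, against 14.6% of all genes, with 9 by DESeq2 on all libraries), and the synthesis median was -0.35. In such fits the lone OAT-1746 library is assumed to vary like the other groups. Without CTR replicate 1, 8 genes had an unadjusted p under 0.05 instead of 16, with 17.4% of all genes at this p instead of 32.3%, and without COMB replicate 1 a single gene, Cyp51, passed, against 2.23% of all genes, with an adjusted p of 0.0465, within a range over all alternatives of 0.000701 to 0.273. The LXR and efflux median was -0.27 without OAT-1746 replicate 1 and 0.032 without replicate 2.

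**Figure D5:**
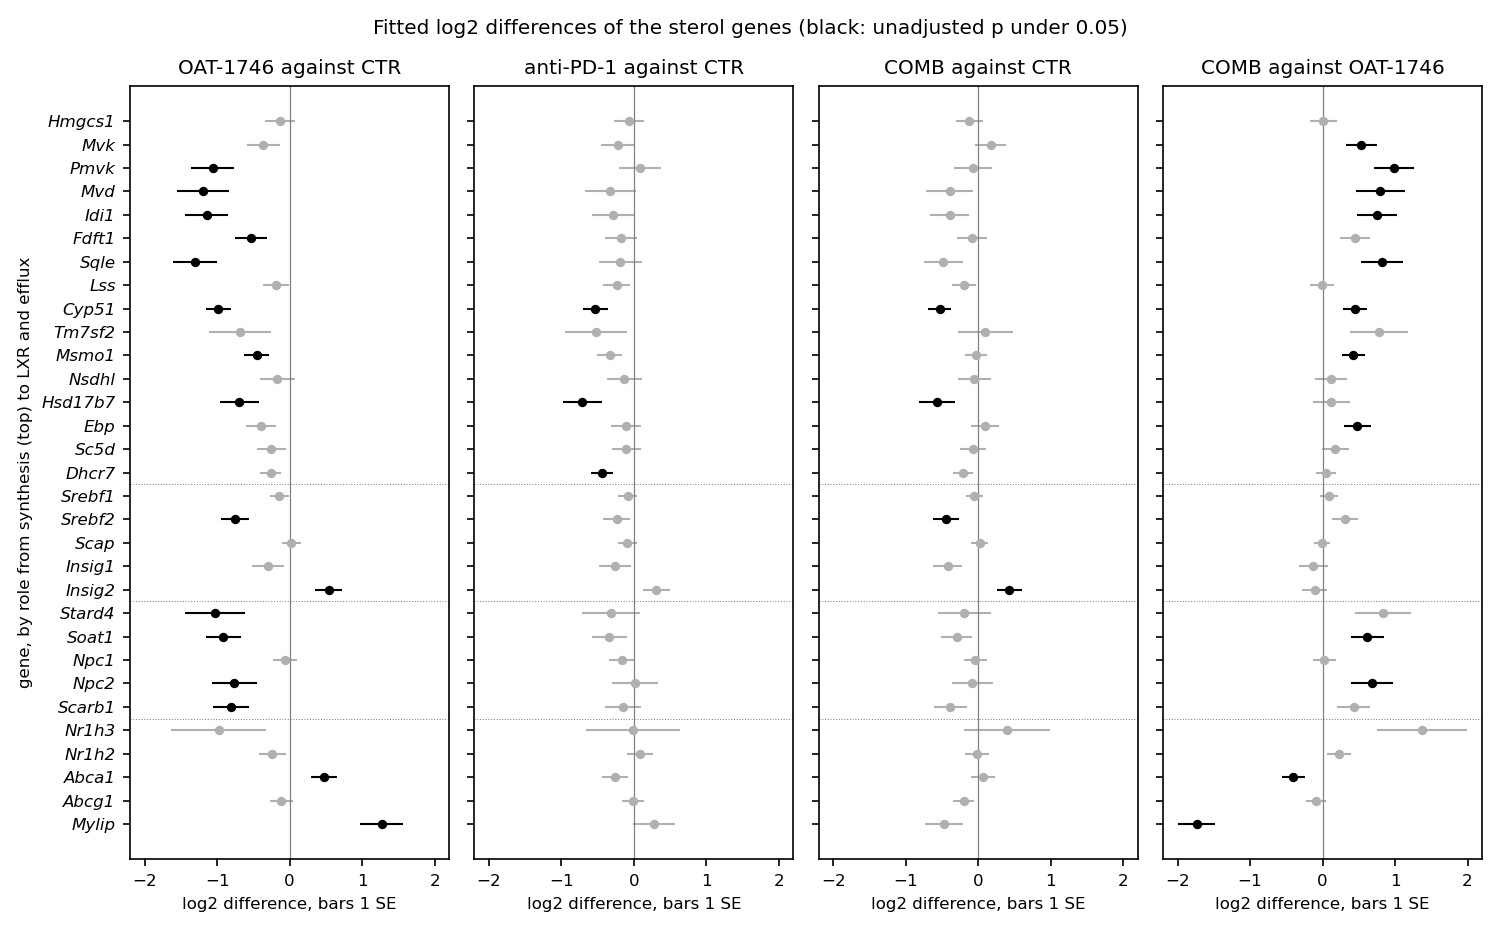
Fitted log2 differences (horizontal) of the 31 tested sterol genes (vertical, by role) in 4 contrasts, with bars of 1 SE and black points for an unadjusted p under 0.05. In OAT-1746 against CTR every synthesis point is left of 0, and in COMB against OAT-1746 most are right of 0, with Mylip farthest left at -1.74.

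The comparison of anti-PD-1 with CTR asks what the antibody alone does. Of the 31 genes, 26 had lower and 5 higher fitted levels, with a median log2 difference of -0.18 (range with 1 library left out -0.24 to -0.12) against 0.022 over all tested genes. The synthesis genes were lower in 15 of 16, with a median of -0.23, and Pmvk was the exception at 0.088 ± 0.29 (range with 1 library left out -0.19 to 0.42). The 5 transport genes had a median of -0.17 (range -0.23 to -0.12), the 5 regulators -0.091 (range -0.14 to -0.060) and the LXR and efflux genes -0.010 (range -0.039 to 0.12). The genes with an unadjusted p under 0.05 were Hsd17b7 at -0.71 ± 0.27 (range -0.96 to -0.41), Cyp51 at -0.53 ± 0.17 and Dhcr7, the reductase of the last step, at -0.44 ± 0.15. Without CTR replicate 1 the counts were 20 lower and 11 higher, with 11 of 16 synthesis genes lower. Dhcr7 was lower in both anti-PD-1 libraries than in both CTR libraries, as were the other two.

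In the antibody contrast 0 genes of the list were higher at an unadjusted p under 0.05, against 3.18% of all genes, and 3 were lower, against 1.94%. By the adjusted threshold edgeR passed 0 of the 31, with a smallest adjusted p of 0.951, as it passed 0 of all tested genes. DESeq2 called 0 of the 31, against 0.112% of all genes. Abca1 was at -0.26 ± 0.18, Abcg1 at -0.013 ± 0.15 and Mylip at 0.28 ± 0.29, with ranges of -0.39 to -0.15, -0.041 to 0.012 and 0.17 to 0.39 with 1 library left out. NK cell markers were higher for 7 of 7 genes at an unadjusted p under 0.05, with a median of 2.38, and summed to 33.34 and 29.88 CPM in CTR, 48.77 and 14.82 in OAT-1746, 203.2 and 104.3 in anti-PD-1, and 42.57, 91.53 and 99.6 in COMB, with Gzma the most abundant and none at 0. Monocyte and macrophage markers were higher for 7 of 9 genes, 1 of them at this p, with a median of 0.56. G2/M genes were lower for 8 of 8 genes, with a median of -0.79, and T cell markers higher for 4 of 5, with a median of 1.40, and 0 of either list were at this p by edgeR or called by DESeq2. Their part in the values of the sterol genes was not tested. A single gene had an unadjusted p under 0.05 without CTR replicate 2 (3.81% of all genes) or without anti-PD-1 replicate 2 (6.17%).

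The comparison of COMB with CTR asks what both agents do together. The synthesis genes had a median log2 difference of -0.10 (-0.0048 over all tested genes), 13 of 16 lower. The median was -0.047 without CTR replicate 1, with 9 of 16 lower, and -0.27 without CTR replicate 2. Srebf2 was lower at -0.44 ± 0.17 and Insig2 higher at 0.43 ± 0.17, each with all 3 COMB libraries on the same side of both CTR libraries. Cyp51 was lower at -0.53 ± 0.16 and Hsd17b7 at -0.57 ± 0.25 (range with 1 library left out -0.80 to -0.27). These 4 had unadjusted p-values of 0.0308, 0.0332, 0.0076 and 0.0452.

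The LXR and efflux median in COMB was -0.016 (range with 1 library left out -0.10 to 0.023), with Abca1 at 0.067 ± 0.16 (range 0.019 to 0.11), Abcg1 at -0.20 ± 0.14, Mylip at -0.47 ± 0.26 and Nr1h3 at 0.40 ± 0.60 (range 0.26 to 0.61). The transport genes had a median of -0.19 (range -0.38 to -0.043), lower in 5 of 5, and the regulators -0.052 (range -0.084 to 0.0028). Over the list, 1 gene was higher at an unadjusted p under 0.05, against 3.21% of all genes, and 3 were lower, against 3.37%. By the adjusted threshold edgeR passed 0 of the 31, as it passed 0 of all tested genes, and DESeq2 called 0, against 0.279% of all genes. Leaving out single libraries changed the 4 genes at the unadjusted threshold to 1 without CTR replicate 1, COMB replicate 2 or COMB replicate 3 (4.26%, 3.74% and 3.58% of all genes), 2 without COMB replicate 1 (7.9%), and 7 without OAT-1746 replicate 1 (9%).

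Marker lists differed between COMB and CTR as well. At an unadjusted p under 0.05, immediate early genes were lower for 7 of 8 genes, with a median of -0.90. NK cell markers were higher for 7 of 7 genes, 4 of them at this p, with a median of 1.41. At this p 3 of 8 neutrophil, 3 of 5 astrocyte, 2 of 5 endothelial and 1 of 5 T cell markers were higher and none lower, with medians of 0.84, 0.66, 0.62 and 0.90. G2/M genes were lower for 8 of 8 genes, 0 of them at this p by edgeR or called by DESeq2, with a median of -0.55. The astrocyte markers summed to 103 and 134.8 CPM in CTR, 174.8 and 224 in OAT-1746, 114.8 and 101.3 in anti-PD-1, and 173.2, 180.9 and 163.5 in COMB, with Slc1a3 the most abundant, and the endothelial markers to 118.5 and 83.52 CPM in CTR, 120.5 and 141.2 in OAT-1746, 157.3 and 116.4 in anti-PD-1, and 148.5, 128.2 and 146.5 in COMB, with Flt1 the most abundant. No marker of these 2 lists was at 0. The part of the marker lists was not tested.

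The comparison of COMB with anti-PD-1 asks what the inhibitor adds to the antibody. The sterol genes had a median log2 difference of 0.040 (-0.0093 over all tested genes), 18 higher and 13 lower, with a range of 0.020 to 0.11 with 1 library left out. The synthesis median was 0.061 (range 0.0061 to 0.12), the transport median 0.040 (-0.089 to 0.068), the regulator median 0.034 (-0.011 to 0.079) and the LXR and efflux median -0.10 (-0.17 to 0.025). Mylip was lower at -0.75 ± 0.26 (unadjusted p = 0.0185, adjusted p = 0.599), with all 3 COMB libraries below both anti-PD-1 libraries. Abca1, in contrast, was at 0.33 ± 0.16 (unadjusted p = 0.0728, range with 1 library left out 0.22 to 0.46), with all COMB libraries above both anti-PD-1 libraries.

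At an unadjusted p under 0.05, 0 genes of the list were higher in COMB than in anti-PD-1, against 1.98% of all genes, and 1 was lower, against 5.26%. By the adjusted threshold edgeR passed 0, as over all tested genes, and DESeq2 called 0, against 0.375% of all genes. The count at the unadjusted threshold was 0 without anti-PD-1 replicate 2, COMB replicate 2 or COMB replicate 3 (3.98%, 3.83% and 3.62% of all genes). It was 2 without OAT-1746 replicate 1, OAT-1746 replicate 2 or anti-PD-1 replicate 1 (9.84%, 9.72% and 8.15%), and 3 without COMB replicate 1 (10.3%). Immediate early genes were lower for 7 of 8 genes at this p, with a median of -1.20, and neutrophil markers differed for 6 of 8 genes, 5 higher, with a median of 1.14. NK cell markers were lower for 7 of 7 genes, 2 of them at this p, with a median of -1.10, and the lists of monocytes and macrophages (lower), oligodendrocytes, astrocytes and endothelial cells (higher) had 1 gene each at this p. The neutrophil markers summed to 73.4 and 170.1 CPM in CTR, 150 and 246.1 in OAT-1746, 129.4 and 98.9 in anti-PD-1, and 185.8, 216.4 and 205.3 in COMB, with S100a9 the most abundant and none at 0. The part of these lists was not tested.

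The comparison of COMB with OAT-1746 asks what the antibody adds to the inhibitor, and it is where genes of the list passed the test. Mylip fell by 1.74 on the log2 scale (SE 0.26, adjusted p = 0.016 in edgeR and 5.49e-07 in DESeq2), to 0.30 of its level with OAT-1746 alone, and was lower in 3 of 3 COMB libraries than in both OAT-1746 libraries. Pmvk rose by 0.99 ± 0.28 (adjusted p = 0.0445 in edgeR and 0.0106 in DESeq2) and was higher in 3 of 3 COMB libraries. The synthesis genes had a median log2 difference of 0.45 against 0.0029 over all tested genes, 15 of 16 higher, with Lss at -0.0097 (range with 1 library left out -0.082 to 0.084). The transport genes had a median of 0.62 (range 0.25 to 0.96), 5 of 5 higher, and the LXR and efflux genes a median of -0.088 (range -0.21 to 0.064).

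Of the genes that did not pass edgeR in this contrast, Sqle was at 0.82 ± 0.29 and Soat1 at 0.62 ± 0.22, with adjusted p-values of 0.0755 and 0.0811 in edgeR and 0.0402 and 0.0369 in DESeq2. With 1 library left out they ranged over 0.41 to 1.42 and 0.34 to 0.98. Mvd, Idi1, Mvk, Cyp51, Msmo1, Ebp and Npc2 were higher with unadjusted p-values between 0.0209 and 0.0438 and log2 differences between 0.42 and 0.80. With 1 library left out Mvd ranged over 0.42 to 1.35, Cyp51 over 0.26 to 0.69, Ebp over 0.26 to 0.77 and Npc2 over 0.25 to 1.33. Correcting for gene length and GC content put Ebp at 0.172, and with the replicate block added Ebp was at 0.156 and Mvk at 0.26. Abca1 was lower at -0.40 ± 0.16 (unadjusted p = 0.0332, range -0.56 to -0.21), and was at -0.135 with the correction for gene length and GC content. Abcg1 was at -0.088 ± 0.14 (range -0.21 to 0.064). Nr1h3 was at 1.38 ± 0.62 (unadjusted p = 0.0535, range 0.59 to 3.28), and OAT-1746 replicate 1 overlapped the COMB values.

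At an unadjusted p under 0.05, 10 of the 31 genes were higher in COMB than in OAT-1746, against 18.3% of all tested genes, and 2 were lower, against 18.8%. At the adjusted threshold 1 gene was higher, against 6.84%, and 1 lower, against 8.94%. DESeq2 called 3 higher, against 13.2%, and 1 lower, against 11.3%. Read against these shares, the list exceeded the background on the higher side at the unadjusted threshold and lay under it elsewhere in the fit of all libraries.

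The calls in COMB against OAT-1746 were lost in several fits without a library, and the log2 differences were clearly smaller in one of these. Without OAT-1746 replicate 2, 0 genes of the list passed edgeR, against 0.21% of all genes, 3 of 32 had an unadjusted p under 0.05, against 19.4%, and DESeq2 on all libraries called 4, and the log2 difference of Mylip was -1.19 and that of Pmvk 0.70. Without OAT-1746 replicate 1, 12 of the 32 passed, against 31.4% of all genes, and 17 had an unadjusted p under 0.05, against 43.8%. The call of Mylip was also lost without COMB replicate 2 or COMB replicate 3, and that of Pmvk was lost without either of these, either CTR library or either anti-PD-1 library. In these fits the log2 difference was -1.66 and -1.64 for Mylip and between 0.916 and 0.999 for Pmvk, close to the values reported. Over all alternatives the adjusted p ranged from 5.49e-07 to 0.217 for Mylip and from 0.0106 to 0.256 for Pmvk. The count at an unadjusted p under 0.05 was 4 of 31 without COMB replicate 2 and 5 of 31 without COMB replicate 3, against 25% of all genes in both fits, so the list lay under the background there and without OAT-1746 replicate 2. Correcting for gene length and GC content ended the call of Pmvk and turned the LXR and efflux median to 0.13. Both calls were also lost with only the groups compared, at -1.73 for Mylip and 0.987 for Pmvk. The replicate block ended both too, at -1.63 and 1, as did the block with that correction, at -1.79 and 0.679.

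Marker lists differed here too. Microglial markers were lower in COMB than in OAT-1746 for 9 of 9 genes, 2 of which passed edgeR, with a median of -0.71. Immediate early genes were lower for 8 of 8 genes, 7 of which passed, with a median of -1.91. G2/M genes were higher for 8 of 8 genes, 2 of which passed, with a median of 0.96, and monocyte and macrophage markers were higher for 7 of 9, with a median of 0.62 and 1 at an unadjusted p under 0.05. Of the astrocyte markers 5 of 5 differed at this p, 3 higher and 2 lower, and 2 passed, with a median of 0.91. NK cell markers were higher for 7 of 7 genes, 3 at this p, with a median of 1.01. Border-associated macrophage markers differed at this p for 4 of 7 genes, 3 higher and 1 lower, of which 1 passed, with a median of -0.33. They summed to 769.3 and 876.7 CPM in CTR, 639.3 and 608.5 in OAT-1746, 717.1 and 719.2 in anti-PD-1, and 685.3, 787.1 and 814.1 in COMB, with F13a1 the most abundant and none at 0. Of the myeloid identity genes 4 of 7 differed at this p, 2 in each direction, and 1 passed, higher, with a median of 0.097, and 1 of 7 oligodendrocyte markers was higher at this p. The part of these lists in the values of the sterol genes was not tested.

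The interaction asks whether OAT-1746 acts differently with and without the antibody. It is the difference of COMB from anti-PD-1 minus the difference of OAT-1746 from CTR. All 16 synthesis genes had positive interaction values, with a median log2 value of 0.76 against -0.023 over all tested genes. The LXR and efflux genes had a median of -0.074 (range with 1 library left out -0.10 to 0.079). Mylip had the most negative value, -2.02 ± 0.39, and Cyp51 stood at 0.98 ± 0.24. Their adjusted p-values were 0.0668 and 0.0885 in edgeR and 0.000498 and 0.0168 in DESeq2. Soat1 stood at 0.96 ± 0.33 and Msmo1 at 0.76 ± 0.23, with unadjusted p-values of 0.0165 and 0.00971.

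By the adjusted threshold edgeR passed 0 of the 31 genes in the interaction, against 0.00798% of all genes on the higher side and 0.351% on the lower. At an unadjusted p under 0.05, 8 were higher, against 11.8%, and 1 was lower, against 14.4%. DESeq2 called 1 higher, against 3.61%, and 1 lower, against 4.79%. Without OAT-1746 replicate 1, 11 of the 32 genes passed edgeR, against 21.3% of all genes in the same fit, and 17 had an unadjusted p under 0.05, against 37%. Without replicate 2 edgeR passed 0, against 0.203%, and 6 had an unadjusted p under 0.05, against 17.2%. Without COMB replicate 1 a single gene, Mylip, passed, against 3.4% of all genes, and without COMB replicate 2 the count at the unadjusted threshold was 4, against 17.9% of all genes. Scaling by library size alone moved the median over all genes to -0.11, and 15 of 16 synthesis genes were positive on that scale. In 4 further fits 1 of 16 was negative. These were voom, the replicate block with the length and GC correction, and the fits without CTR replicate 1 and without COMB replicate 1. Correcting for gene length and GC content turned the LXR and efflux median of the interaction to 0.17. Immediate early genes were negative for 8 of 8 genes, 4 of which passed edgeR, with a median of -2.26, and G2/M genes were positive for 8 of 8, with a median of 1.89. Microglial and NK cell markers were negative for 9 of 9 and 7 of 7 genes, 3 and 2 of them at an unadjusted p under 0.05, with medians of -0.84 and -1.22. At this p were also 3 of 7 border-associated macrophage, 2 of 5 astrocyte, 1 of 9 monocyte and macrophage, 1 of 7 oligodendrocyte and 1 of 7 myeloid identity genes. The part of these lists was not tested.

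Neighboring genes of the pathway did not all share the difference seen in OAT-1746 against CTR, where 16.1% of all tested genes were higher and 16.2% lower at an unadjusted p under 0.05. Of 10 other sterol genes, covering the branch points of synthesis, SREBP processing and enzyme turnover, 7 were higher and 3 lower, with a median of 0.089 and 1 at an unadjusted p under 0.05, higher. The SREBP proteases Mbtps2 and Mbtps1 were at 0.45 ± 0.17 and 0.32 ± 0.15, and Acat2 and Lbr were lowest at -0.26 ± 0.30 (range with 1 library left out -0.64 to 0.050) and -0.15 ± 0.14. Of 9 genes of fatty acid synthesis that SREBPs also drive, 3 were lower at an unadjusted p under 0.05 and 0 were higher, with a median of -0.022. The first enzymes of that pathway, Acaca and Fasn, were lowest at -0.82 ± 0.25 and -0.75 ± 0.26, with adjusted p-values of 0.0803 and 0.0976, and ranged over -1.12 to -0.46 and -1.01 to -0.45 with 1 library left out, smallest without CTR replicate 1. The desaturase Scd1 was highest at 0.35 ± 0.53 (range 0.077 to 0.59), followed by Acss2 at 0.12 ± 0.34 (range -0.22 to 0.59).

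Of 7 other LXR partners and targets, 2 were higher and 1 lower at an unadjusted p under 0.05 in OAT-1746, with a median of 0.15. The transporter Abcg2 was at 0.74 ± 0.24 and the phospholipid remodeling enzyme Lpcat3 at 0.70 ± 0.26 (range with 1 library left out 0.38 to 1.11). The phospholipid transfer protein Pltp was at -0.74 ± 0.17 (adjusted p = 0.0617 in edgeR and 0.00463 in DESeq2), and the LXR partner Rxrb was next lowest at 0.11 ± 0.13. Of 12 other genes of uptake, ester hydrolysis and transport, 4 were lower at an unadjusted p under 0.05 and 0 were higher, with a median of -0.10. Ch25h, which makes an oxysterol, was lowest. It stood at 45.5 and 29.7 CPM in CTR, 11.6 and 3.26 in OAT-1746, 33.2 and 42.5 in anti-PD-1, and 14.5, 43.4 and 33.5 in COMB, with OAT-1746 below the other 7 libraries. Its log2 difference in OAT-1746 was -2.34 ± 0.60 (adjusted p = 0.0695 in edgeR and 0.00217 in DESeq2), and was -3.53 without OAT-1746 replicate 1 and -1.69 without replicate 2. The scavenger receptor Msr1 was at -1.91 ± 0.78 (range -4.17 to -1.06), and Vldlr and Gramd1a were highest at 0.45 ± 0.99 (range -0.42 to 1.00) and 0.22 ± 0.14. In these 4 lists edgeR passed 0 genes, and DESeq2 called 0, 1, 1 and 3 in the order given.

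In the other contrasts against CTR the same 4 lists had medians between -0.19 and -0.062 for anti-PD-1 and between -0.21 and -0.00083 for COMB, and edgeR passed 0 of their genes in both. At an unadjusted p under 0.05 there were 2 of these genes in anti-PD-1 (5.12% of all genes) and 2 in COMB (6.58%). DESeq2 called 0 of them in either contrast, against 0.112% and 0.279% of all genes. In COMB against OAT-1746, 18.3% of all tested genes were higher and 18.8% lower at an unadjusted p under 0.05. In that contrast 15.8% passed edgeR and DESeq2 called 24.4%. There the 7 other LXR genes had a median of -0.43, 6 of 7 lower and 3 of them at this p, and the remaining gene was higher at this p. Of these, 0 passed edgeR and 2 were called by DESeq2. Of the 12 other genes of uptake, ester hydrolysis and transport, 4 were higher and 1 lower at an unadjusted p under 0.05, with a median of 0.011, and DESeq2 called 2. Ch25h alone passed edgeR and rose by 2.04 ± 0.57 (adjusted p = 0.044 in edgeR and 0.00144 in DESeq2), with all 3 COMB libraries above both OAT-1746 libraries. Its call held in 11 of 23 alternatives. It was lost without OAT-1746 replicate 2, COMB replicate 2, COMB replicate 3, either CTR library or either anti-PD-1 library, with log2 differences of 1.41, 1.69 and 1.95 in the first 3 and 2.04 or 2.05 in the rest. It was also lost with the robust fit (2.04), only the groups compared (2.03), the replicate block (2.01), the length and GC correction (1.54) and these last 2 together (1.48), and without OAT-1746 replicate 1 the log2 difference was 3.23. Of the 10 other sterol genes 2 were lower and 0 higher at an unadjusted p under 0.05, with a median of -0.075, 0 passing edgeR and 0 called by DESeq2. The 9 fatty acid genes had a median of -0.018 in that contrast, with 0 at an unadjusted p under 0.05 by edgeR and 0 called by DESeq2.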

How the data were processed

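RNA-seq of sorted CD11b+ cells gave 9 libraries. The authors deposited raw counts, the number of read pairs on each gene. By the submitters' notes they used Trimmomatic, STAR, Picard and HTSeq (mm10, mapping quality of at least 10). Groups follow the sample titles. Totals ranged from 13048075 to 18796479. Of 53620 genes found in GENCODE M21, 21890 were protein-coding, and edgeR's filterByExpr (minimum count 10) left 12538.

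In R 4.3.3, edgeR 4.0.16 (TMM, quasi-likelihood, a mean per group, all libraries together; coefficient of variation 0.214, prior degrees of freedom 4.15) tested 6 contrasts, two-sided, with Benjamini-Hochberg adjustment over all tested genes and a threshold of 0.05. CPM are TMM-normalized, log2 CPM used a prior count of 2, and length is the union of a gene's exons. The alternatives included DESeq2 1.42.0, limma 3.58.1 (voom), other scalings and filters, gene length and GC content (loess span 0.5), a replicate block, fits of only the groups compared and leaving out each library. Promoter letters were searched and figures drawn in Python 3.11.15 with matplotlib 3.10.9. The steps were tested on simulated data.

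All 32 genes are accounted for. Values in every library are given for Srebf2, Nr1h3, Abca1, Abcg1 and the 12 genes with the largest absolute log2 difference among those with an unadjusted p under 0.05 in any contrast. Other pathway genes come from 4 lists, of which the 2 highest and 2 lowest in OAT-1746 against CTR are named. Marker lists cover microglia, monocytes and macrophages, border-associated macrophages, neutrophils, NK cells, T cells, oligodendrocytes, astrocytes, endothelial cells, myeloid identity, immediate early genes and G2/M. Of the marker lists whose summed level is given, 1 has a most abundant gene that is not reported here. The members and lists were chosen with earlier results of these data known. Ch25h in every library was added after its values were seen.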

Additional observations from a re-analysis of the deposited data

How the results depend on the processing

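The log2 differences of single genes, 84 in all, were refitted under each alternative. Of the refitted values, 1782 kept their sign and their side of edgeR's threshold, 78 passed it in addition, 29 no longer passed it and 33 changed sign. The sign changes fell on 12 of the 84, of which 0 had an unadjusted p under 0.05 in the fit reported, and 0 of the changed values passed the threshold. Of the counts of genes, 209 stayed within 1.5 times and 65 did not. Of the medians, 250 moved by less than the spread between replicates and 24 by more. The synthesis minus efflux level moved by less in each of the 9 libraries under its 2 alternatives, a smaller prior count and the size factors of DESeq2. The size factors scale both sides alike, and the prior count matters little at these counts, so neither could move the level far. The length and GC correction was not applied to this level. Beyond the shared construction of each alternative, the cause was not tested. 2 alternatives, DESeq2 with its filtering set at 0.05 and the genes on unplaced scaffolds added, were chosen after seeing the data. Below, percentages in parentheses give the share of all tested genes in the same fit.

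In OAT-1746 against CTR, where edgeR passed 0 genes and 16 had an unadjusted p under 0.05, 9 passed with DESeq2 at either filtering (15.7% and 15.9%) and 3, Sqle, Cyp51 and Mylip, with no low-count filter (3.65%), and the unadjusted count was 9 when only the groups compared were fitted (22.5%). In COMB against CTR the unadjusted count of 4 became 7 with voom (14.9%) and 7 with only the groups compared (10.1%). In COMB against anti-PD-1 the unadjusted count of 1 became 2 with DESeq2 at either filtering (6.74%), 2 with at least 10 counts in every library (7.22%), 2 with the correction for gene length and GC content (7.9%) and 4 with voom (15.9%). In COMB against OAT-1746, where 2 genes passed, 4 passed with DESeq2 at either filtering (24.4%), 5 with voom (22.4%), 1 with the length and GC correction (10.8%) and 0 with only the groups compared (0.245%, with 12 sterol genes at an unadjusted p in the fit of all libraries). In that last fit Mylip was at -1.73 and Pmvk at 0.987, close to the values reported. In the interaction, where 0 passed, 2 passed with DESeq2 at either filtering (8.4% and 8.18%), 1 with no filter (0.908%) and 2 with voom (3.41%), which also gave 14 at an unadjusted p (31.4%) instead of 9. The length and GC correction moved the LXR and efflux median to -0.27 in OAT-1746 against CTR, to 0.13 in COMB against OAT-1746 and to 0.17 in the interaction, and the synthesis median of the interaction to 0.64.

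The replicate block treats libraries with the same number as pairs. Between such libraries the correlation of their departures from the group means, across genes, lay between -0.35 and 0.10. In a group of 2 libraries the departures mirror each other, so few of these correlations are independent. They cannot decide whether the numbers pair the samples. With the replicate block the unadjusted count was 9 in OAT-1746 against CTR (21.1%), 1 in anti-PD-1 against CTR (2.1%, and 3 sterol genes without it), 1 in COMB against CTR (2.62%), 0 in COMB against anti-PD-1 (2.94%), 4 in COMB against OAT-1746 (19.8%), where edgeR passed 0 (Mylip at -1.63 and Pmvk at 1) and DESeq2 without a block called 4, and 5 in the interaction (12.4%). With the block and the length and GC correction together, the unadjusted counts were 10 in OAT-1746 against CTR (21.9%), 1 in COMB against CTR (3.13%), 0 in COMB against anti-PD-1 (3.46%) and 6 in COMB against OAT-1746 (18.1%), where 0 passed, and the LXR and efflux medians were -0.28 in OAT-1746 against CTR, 0.15 in COMB against OAT-1746 and 0.19 in the interaction.

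Leaving out each library in turn gave these ranges. In OAT-1746 against CTR, 0 to 15 genes passed, 8 to 18 had an unadjusted p under 0.05, the synthesis median was -0.67 to -0.35 and the LXR and efflux median -0.27 to 0.032. In anti-PD-1 against CTR the unadjusted count was 1 to 3, the synthesis median -0.34 to -0.17 and the LXR and efflux median -0.039 to 0.12. In COMB against CTR the unadjusted count was 1 to 7, the synthesis median -0.27 to -0.047 and the LXR and efflux median -0.10 to 0.023. In COMB against anti-PD-1 the unadjusted count was 0 to 3, the synthesis median 0.0061 to 0.12 and the LXR and efflux median -0.17 to 0.025. In COMB against OAT-1746, 0 to 12 passed, 3 to 17 had an unadjusted p under 0.05, the synthesis median was 0.34 to 0.65 and the LXR and efflux median -0.21 to 0.064. In the interaction, 0 to 11 passed, 4 to 17 had an unadjusted p under 0.05, the synthesis median was 0.61 to 0.92 and the LXR and efflux median -0.10 to 0.079.

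The sign changes outside the fits without a library were these. In COMB against OAT-1746 Lss, at -0.0097 as reported, was at 0.0124 with DESeq2 at either filtering, 0.0126 with the size factors of DESeq2 in edgeR, 0.0101 with no filter, 0.0026 with at least 10 counts in every library, 0.0663 with voom, 0.288 with the length and GC correction and 0.227 with this correction and the replicate block, and Abcg1 was at 0.131 and 0.15 under the last 2. Under the same 2, in OAT-1746 against CTR, Scap was at -0.258 and -0.259, Acss2 at -0.0401 and -0.0304 and Rxrb at -0.119 in both. Scaling by library size alone put Npc1 at 0.0229 in OAT-1746 against CTR and Abcg1 at 0.0261 in anti-PD-1 against CTR. With each library left out in turn, the ranges that cross 0 were, in OAT-1746 against CTR, -0.402 to 0.191 for Hmgcs1, -0.000496 to 0.0579 for Scap, -0.129 to 0.00409 for Npc1, -0.266 to 0.032 for Abcg1, -0.642 to 0.0498 for Acat2, -0.425 to 1 for Vldlr and -0.217 to 0.586 for Acss2. They were -0.186 to 0.416 for Pmvk and -0.0411 to 0.0123 for Abcg1 in anti-PD-1 against CTR, and -0.0817 to 0.0837 for Lss and -0.208 to 0.0641 for Abcg1 in COMB against OAT-1746. Among single genes with an unadjusted p under 0.05, these moved by over 1.5 times with all libraries kept. With the length and GC correction, without and with the replicate block, Abca1 was at 0.285 and 0.286 in OAT-1746 against CTR (0.47 as reported) and at -0.135 and -0.154 in COMB against OAT-1746 (-0.40), and Ebp at 0.172 and 0.156 there (0.48). With both together Mvk was at 0.26 in COMB against OAT-1746 (0.53) and at 0.485 in the interaction (0.76). The cause was not tested.

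The data hold 2 or 3 libraries per group, and 2 OAT-1746 libraries that differ from each other in cell type markers, so the size of each OAT-1746 difference is known only between these libraries. Genes with few counts, such as Fdps, limit what depth can show, and overlapping genes limit the counts of Fdps and Tm7sf2. Protein, sterol content and efflux itself were not measured.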
